A study of Homo sapiens with 15 samples.

Results

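MondoA, encoded by MLXIP, was knocked down with siRNA in PSN-1 cells, an established human cell line of pancreatic ductal adenocarcinoma (PDAC), and every gene passing a count filter was compared with cells given a control siRNA. The comparison rests on 6 of the 15 RNA-seq libraries of the study: siMondoA replicates 1, 2 and 3 against siControl replicates 1, 2 and 3, with 13001 genes tested of 26485 in the table. Both groups were grown in RPMI with 10% FBS and antibiotics and harvested 72 hours after transfection, and neither carries any other named treatment or allele. A further group of 3 libraries, siMLX, received siRNA against MLX, the DNA-binding partner of MondoA, and entered the same fit. The remaining 6 libraries belong to a drug experiment and are not used here. The siRNA sequences and the number of siRNAs per target are not given in the sources used here, and no rescue is among the samples, so loss of MondoA and other effects of the siRNA cannot be told apart. Whether the replicates were separate cultures is not given. The p-values set differences against the spread of these libraries, and that spread may be technical. PSN-1 is 1 cell line, so nothing here bears on other lines.

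MondoA is a basic helix-loop-helix leucine zipper transcription factor that is held outside the nucleus and enters it when phosphorylated hexoses accumulate. With MLX it binds carbohydrate response elements, which are pairs of E-box-like sites of the form CACGNG set apart by 5 bases, and it switches on TXNIP and ARRDC4, whose arrestin-fold proteins restrain glucose uptake. MondoA and MLX belong to the extended MYC network, in which MYC, MAX and the MXD repressors share partners and E-box sites.

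The libraries held 11227343 to 14731691 counts. Levels are CPM, counts per 1000000 after TMM scaling, and differences are log2 fold changes (written "log2", siMondoA minus siControl) ± their standard error (SE), from edgeR's quasi-likelihood test, with Benjamini-Hochberg adjustment over all genes tested. A gene "rose" or "fell" where the adjusted p was under 0.05. The keratin and adhesion markers of PDAC epithelium (KRT18, KRT8, KRT19, KRT7 and EPCAM) were all detected, summing to 1871 to 2788 CPM in siControl and 1618 to 1963 CPM in siMondoA, and none of the 5 was called. Of the endocrine markers 4 of 5 were at 0 in all 6 libraries, as were CD3E, THY1 and CLDN5. Log2 levels correlated at 0.987 to 0.992 between siControl libraries and at 0.971 to 0.985 between siMondoA libraries.

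Over all genes, 1849 rose and 1683 fell, which is 14.2% and 12.9% of those tested, with a median difference of 0.0039 on the log2 scale. At least 2-fold changes made up 575 rises (4.42%) and 598 falls (4.6%), and at least 4-fold changes 165 rises (1.27%) and 115 falls (0.885%). The 3 libraries of one group all lay above or all below the other 3 for 6135 genes (47.2%), so a lack of overlap is common in these data. Integrated stress response, NF-kB, mitotic and cytosolic ribosomal protein genes make up 256 of the genes tested. In those lists 48 of 69, 23 of 34 and 33 of 69 rose and 27 of 84 fell, and what follows is about the other 12745, of which 1745 rose (13.7%) and 1653 fell (13%). Each count depended on the libraries: without siControl replicates 1, 2 and 3 the number of genes called was 1878, 1745 and 2245, and without siMondoA replicates 2 and 3 it was 2276 and 1944, against 3532 with all libraries. It was 3884 without siMondoA replicate 1. Counts in gene lists moved too, and those given below as leaving out 1 library in turn are in the order siControl replicates 1, 2 and 3, then siMondoA replicates 1, 2 and 3. Stress response rises numbered 15, 16, 21, 57, 24 and 27 leaving out 1 library in turn, NF-kB rises 18, 20, 19, 22, 23 and 18, mitotic rises 24, 21, 33, 26, 29 and 28 and ribosomal protein falls 5, 5, 34, 11, 31 and 5.

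**Figure D1:**
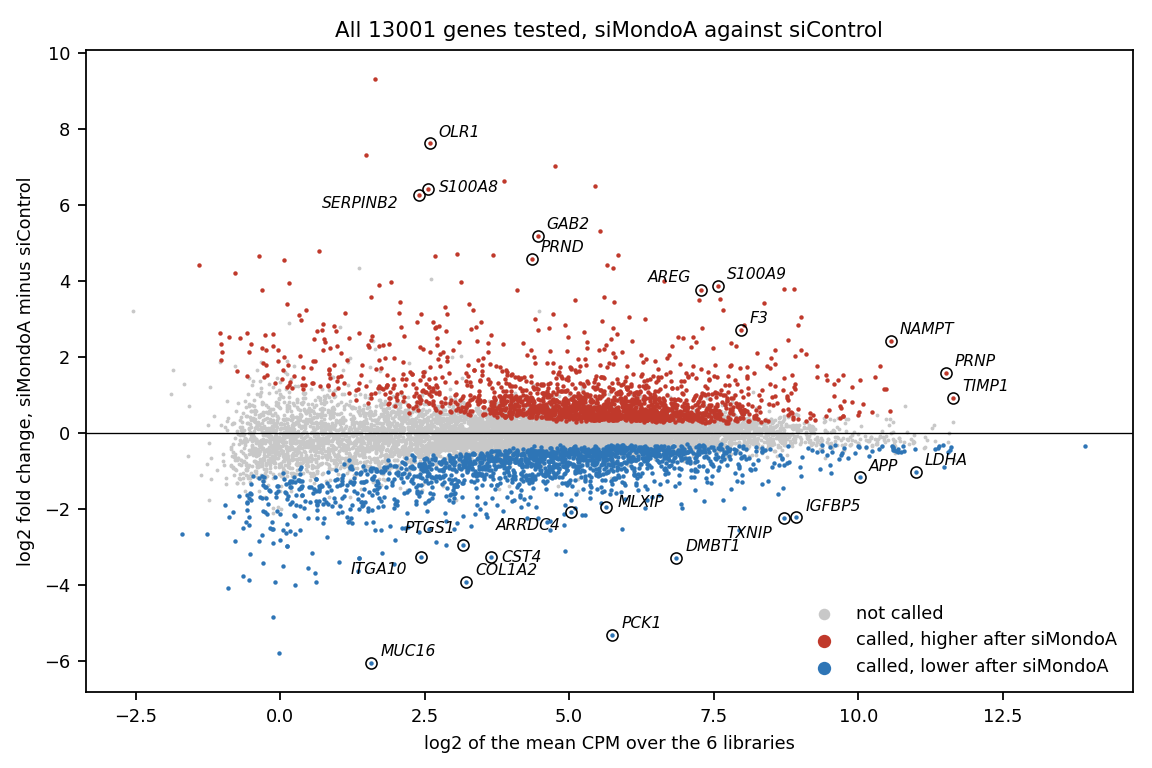
Each point is 1 of the 13001 genes tested, with the log2 of its mean CPM over the 6 libraries on the horizontal axis and its log2 fold change (siMondoA minus siControl) on the vertical axis. Red and blue points passed the test (1849 higher, 1683 lower), and circled genes are named in the text: OLR1, S100A8 and SERPINB2 stand at the top, PCK1 and MUC16 at the bottom.

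The targeted transcript was checked first. MLXIP (chromosome 12, 122078722 to 122147347, plus strand, with gene positions from GENCODE v29 on GRCh38 throughout) stood at 83.6, 65.8 and 88.7 CPM in siControl replicates 1, 2 and 3 and 22.6, 23.4 and 15.7 CPM in siMondoA. Every siMondoA library lay below every siControl library, and the log2 difference was -1.95 ± 0.17, edgeR adjusted p = 1.18e-04. TXNIP (chromosome 1, 145992435 to 145996600, minus strand), the thioredoxin-interacting arrestin, stood at 783, 786 and 519 CPM in siControl and 158, 230.3 and 57.6 CPM in siMondoA. The groups did not overlap, siMondoA replicate 3 was lowest and siControl replicate 3 was the lowest control, and the log2 difference was -2.23 ± 0.60, edgeR adjusted p = 0.0221. That call was lost without siControl replicate 1, siControl replicate 2 or siMondoA replicate 3 (edgeR adjusted p = 0.0626, 0.0672 and 0.0663; 7.52e-04 to 0.0672 over all alternatives). ARRDC4 (chromosome 15, 97960698 to 97973838, plus strand) went from 49.2, 62.3 and 47.1 CPM to 14.1, 16.8 and 6.48 CPM, again with siMondoA replicate 3 lowest and no overlap (log2 -2.08 ± 0.47, edgeR adjusted p = 0.0105). PCK1 (chromosome 20, 57561080 to 57568112, plus strand), cytosolic phosphoenolpyruvate carboxykinase, the committing enzyme of gluconeogenesis, went from 62.2, 134 and 118 CPM to 4.22, 0.954 and 2.72 CPM. Its lowest control library, siControl replicate 1, was still far above the highest siMondoA library, and the log2 difference was -5.31 ± 0.49, edgeR adjusted p = 1.70e-04.

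The windows before the starts of TXNIP and ARRDC4 are shown because these are the standard reporters of MondoA activity, those of MXD4 and GFPT1 because they hold E-box letters and their transcripts changed. The sequences are the 250 bases upstream of a RefSeq start on GRCh38.p14, read 5′ to 3′ on the strand of the gene. Capitals mark CACGTG, or the paired form (CACGNG, 5 bases of any kind, CACGNG) on either strand; CACGTG is a special case of CACGNG.
TXNIP, chr1:145996580-145996829, minus strand: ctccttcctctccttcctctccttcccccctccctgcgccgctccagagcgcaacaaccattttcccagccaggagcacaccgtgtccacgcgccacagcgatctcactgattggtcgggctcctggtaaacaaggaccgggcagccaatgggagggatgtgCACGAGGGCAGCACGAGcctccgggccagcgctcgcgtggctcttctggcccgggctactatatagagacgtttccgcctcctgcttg
ARRDC4, chr15:97960453-97960702, plus strand: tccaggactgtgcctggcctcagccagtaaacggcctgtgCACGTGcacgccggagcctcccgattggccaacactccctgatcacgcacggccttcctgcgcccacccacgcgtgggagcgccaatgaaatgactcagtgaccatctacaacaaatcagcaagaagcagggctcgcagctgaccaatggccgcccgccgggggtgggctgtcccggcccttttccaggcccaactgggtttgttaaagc
MXD4, chr4:2262110-2262359, minus strand: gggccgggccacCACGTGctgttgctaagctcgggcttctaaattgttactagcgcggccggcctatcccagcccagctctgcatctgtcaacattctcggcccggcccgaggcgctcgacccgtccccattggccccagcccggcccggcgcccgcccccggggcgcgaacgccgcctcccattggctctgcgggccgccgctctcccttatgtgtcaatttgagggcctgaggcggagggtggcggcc
GFPT1, chr2:69387228-69387477, minus strand: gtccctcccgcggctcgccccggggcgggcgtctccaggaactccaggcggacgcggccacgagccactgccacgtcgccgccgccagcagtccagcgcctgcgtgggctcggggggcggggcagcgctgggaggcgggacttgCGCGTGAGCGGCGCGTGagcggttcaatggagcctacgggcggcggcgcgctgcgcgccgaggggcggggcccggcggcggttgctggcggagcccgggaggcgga
In TXNIP the paired form is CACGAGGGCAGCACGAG, with its first base 88 bases before the start, and in GFPT1 it reads CGCGTGAGCGGCGCGTG on the printed strand. ARRDC4 and MXD4 hold 1 CACGTG each in these windows, 210 and 238 bases before the start, and neither holds the paired form. The paired form is rare: it occurs in 20 of 35116 RefSeq windows of 300 bases (0.057%; 250 before and 50 after the start), and in windows of 14 genes tested. Of those 14, 3 rose (KCTD5, PPP2R3C and GFPT1) and 2 fell (TXNIP and TCEAL4), where 14.2% and 12.9% of all genes did. So few genes do not set the paired form apart from that background. KCTD5, PPP2R3C and TCEAL4 are named for this match after their values were seen. CACGTG occurs in 9.39% of the windows of tested genes, 8.33% of those of genes that rose and 9.51% of those of genes that fell, near the background. For genes changed at least 2-fold the share was lower, 7.73% for rises and 7.21% for falls, a difference that was not tested. A window was found for 9769 of the genes tested, some with several starts, and none for PCK1. A match of letters describes the window and says nothing of binding.

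The listed direct targets of MondoA or its relative ChREBP, TXNIP and ARRDC4 included, went both ways: of 9 tested, 6 fell and 2 rose. These are 66.7% and 22.2%, beside 12.9% and 14.2% of all genes. ARRDC3, a further arrestin-fold gene that controls receptor trafficking, stood at 304, 384 and 256 CPM in siControl and 197, 148 and 175 CPM in siMondoA (log2 -0.86 ± 0.16, edgeR adjusted p = 0.00499). HBP1, a repressor of cell cycle genes, went from 91.9, 96.7 and 76.9 to 40.9, 52.4 and 47.4 CPM (log2 -0.92 ± 0.17, edgeR adjusted p = 0.00478). In both genes the 3 siMondoA libraries lay below all controls. HK2, hexokinase 2, which traps glucose as its 6-phosphate, moved the other way, from 157, 189.6 and 189 to 237, 305 and 281 CPM (log2 0.62 ± 0.13, edgeR adjusted p = 0.00945) and without overlap. The count of falls in this list was 3, 4, 5, 6, 5 and 4 leaving out 1 library in turn, and that of rises 1, 1, 1, 2, 1 and 1. MXD4, a MYC antagonist of the MXD repressors, went from 146, 117 and 113 to 58.4, 51.7 and 46.2 CPM (log2 -1.27 ± 0.20, edgeR adjusted p = 0.00253), the groups again being apart.

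**Figure D2:**
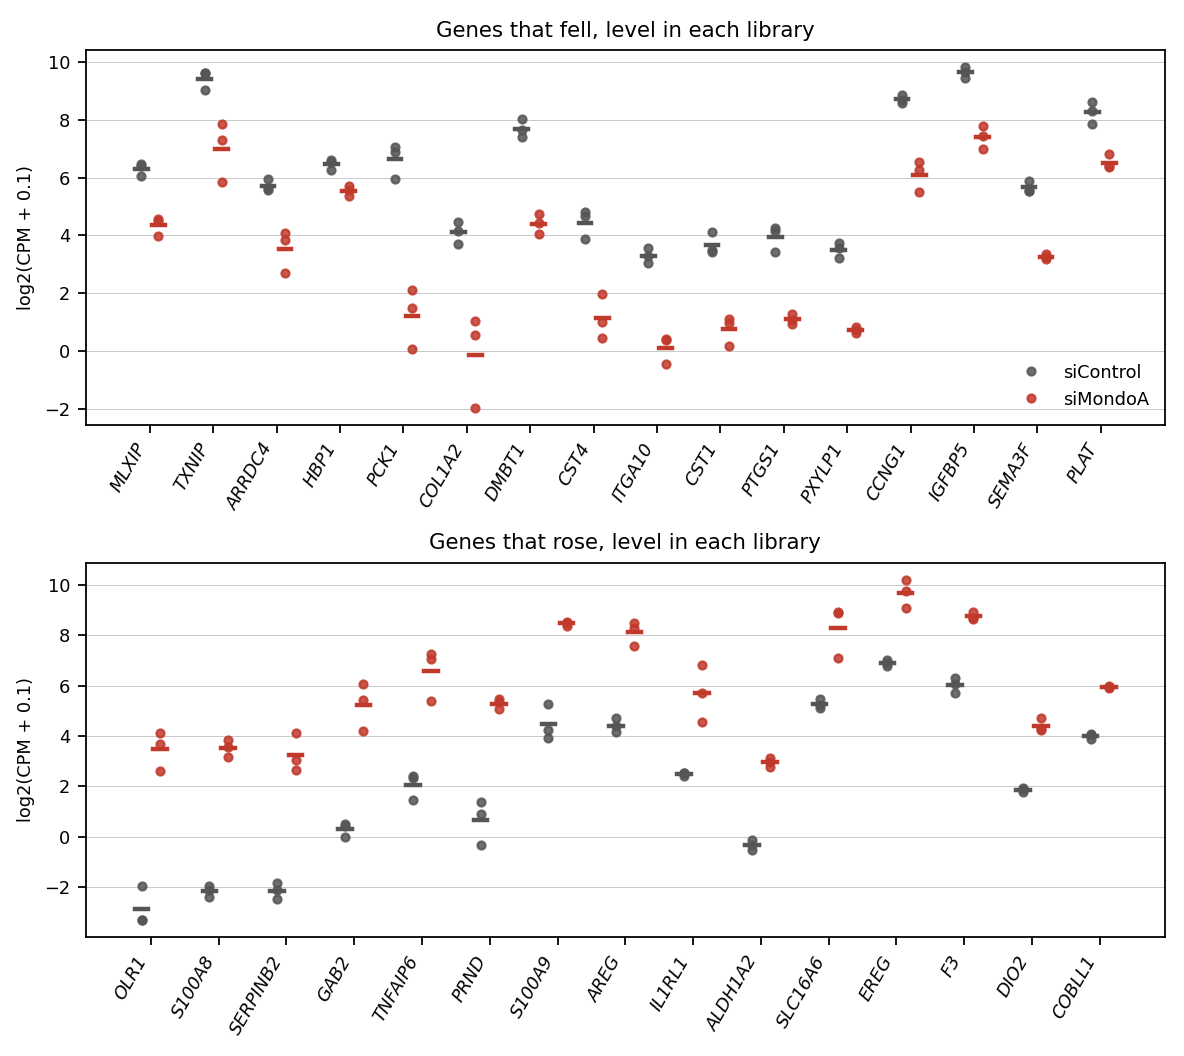
Each dot is 1 library, with the gene on the horizontal axis and log2(CPM + 0.1) on the vertical axis; bars are group means, grey for siControl and red for siMondoA. The upper panel shows genes that fell and the lower panel genes that rose, and for each gene drawn the 3 siMondoA libraries lie on one side of the 3 siControl libraries.

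Genes that steer glucose carbon changed at several single steps. Of 38 genes of glycolysis and pyruvate use, 4 rose and 4 fell (median -0.20), or 10.5% and 10.5% beside 14.2% and 12.9% of all genes. There were 3, 2, 3, 4, 4 and 2 rises and 3, 3, 4, 5, 4 and 3 falls leaving out 1 library in turn, and 8 rises and 7 falls with the replicate number as a block. PDK4, a kinase that switches pyruvate dehydrogenase off, stood at 89.9, 95.5 and 67.4 CPM in siControl and 29.8, 29.6 and 26 CPM in siMondoA (log2 -1.56 ± 0.19, edgeR adjusted p = 6.08e-04). PDP1, a phosphatase that switches the same complex on, went from 98.6, 95.9 and 100.4 to 192, 173 and 213 CPM (log2 0.97 ± 0.11, edgeR adjusted p = 5.66e-04). Thus PDK4 fell and PDP1 rose, each without overlap between groups. Other kinases and phosphatases of this complex are not reported here. SLC2A12, the glucose transporter GLUT12, went from 32, 33.7 and 29.1 to 7.19, 5.09 and 8.09 CPM (log2 -2.22 ± 0.17, edgeR adjusted p = 8.74e-05). LDHA, lactate dehydrogenase A, went from 2573, 2916 and 2689.8 to 1746, 985 and 1311 CPM, with siMondoA replicate 2 lowest (log2 -1.02 ± 0.23, edgeR adjusted p = 0.0105). In glycogen and glucose synthesis, of 18 genes 3 fell and 1 rose, the rise being called only with all libraries or without siMondoA replicate 1 among the fits that leave out a library. Beside PCK1 the falls included GYG1, glycogenin, the protein primer of glycogen, from 45.5, 39.2 and 36.3 to 25.1, 21.5 and 20.1 CPM (log2 -0.86 ± 0.14, edgeR adjusted p = 0.00287). In the hexosamine pathway, which makes the sugar donor for glycosylation, 5 of 16 genes rose, a list that includes the pentose phosphate enzymes. GNPNAT1, its acetyltransferase, went from 90.3, 103 and 104 to 150.1, 234 and 181 CPM (log2 0.92 ± 0.16, edgeR adjusted p = 0.00355). UAP1, which forms the final UDP sugar, went from 127, 144 and 148 to 179, 304 and 230.1 CPM (log2 0.77 ± 0.17, edgeR adjusted p = 0.0106). GFPT1, the rate-limiting first enzyme, was at 91.9, 93.8 and 90.8 CPM in siControl and 121, 420.2 and 203 CPM in siMondoA, highest in replicate 2 (log2 1.43 ± 0.36, edgeR adjusted p = 0.0174). Without siMondoA replicate 2 the GFPT1 log2 fold change was 0.81, and its call was lost without siControl replicates 1, 2 and 3 (edgeR adjusted p = 0.0593, 0.062 and 0.0562; 4.72e-04 to 0.062 over all alternatives). The count of rises in this list was 2, 2, 3, 5, 4 and 4 leaving out 1 library in turn.

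Some transcripts of mitochondrial and citrate metabolism fell and others rose, and the genes printed here are all falls. Of 35 genes of the tricarboxylic acid cycle and its feeding reactions 8 fell and 4 rose. These are 22.9% and 11.4%, beside 12.9% and 14.2% of all genes. IDH1, the cytosolic isocitrate dehydrogenase that makes NADPH, went from 145, 129 and 124 to 84.9, 52 and 67.2 CPM (log2 -0.97 ± 0.20, edgeR adjusted p = 0.00792). The count of falls was 1, 1, 3, 8, 3 and 3 leaving out 1 library in turn, and that of rises 2, 1, 1, 4, 2 and 2. Of 74 nuclear genes of the respiratory chain 7 fell and 2 rose (median -0.10), or 9.46% and 2.7%, both below the shares of all genes. There were 1, 0, 1, 1, 1 and 1 rises and 4, 4, 6, 9, 4 and 4 falls leaving out 1 library in turn. With the replicate number as a block there were 12 falls. UQCRC2, a core subunit of complex III, went from 331, 367 and 312 to 231, 191 and 226 CPM (log2 -0.64 ± 0.11, edgeR adjusted p = 0.00385). NDUFA10, of complex I, went from 132, 122 and 117 to 82.1, 95.1 and 88.9 CPM (log2 -0.48 ± 0.10, edgeR adjusted p = 0.00778).

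ABCA1 and NPC1 were among the sterol genes that rose. ABCA1, the exporter of cholesterol to apolipoprotein, went from 116, 139.8 and 129 to 268, 406 and 345 CPM (log2 1.41 ± 0.26, edgeR adjusted p = 0.00454). NPC1, the lysosomal membrane protein that releases cholesterol, rose from 63.4, 71.4 and 72.2 to 141, 247 and 200.4 CPM (log2 1.51 ± 0.27, edgeR adjusted p = 0.00425). Its soluble partner NPC2 fell from 107, 83 and 64.2 to 43.4, 39.7 and 43.7 CPM (log2 -1.003 ± 0.21, edgeR adjusted p = 0.00819). Over the list, 3 of 31 genes rose and 2 fell, or 9.68% and 6.45%, with a median of -0.20. The count of falls was 2, 2, 2, 4, 3 and 2 leaving out 1 library in turn. It was 9 with siMLX replicate 2 left out of the fit and 7 with the replicate number as a block. In fatty acid synthesis ACSL4, which activates arachidonic acid for membranes, went from 383, 514 and 427 to 1060.3, 850.2 and 1584 CPM (log2 1.40 ± 0.21, edgeR adjusted p = 0.00207). DGAT2, which makes triglyceride, went from 8, 8.22 and 9.52 to 20.2, 21.5 and 22.7 CPM (log2 1.32 ± 0.29, edgeR adjusted p = 0.0102). The lipid droplet coat PLIN2 went from 87.5, 80.2 and 72.1 to 194, 699 and 284 CPM, highest in siMondoA replicate 2 (log2 2.30 ± 0.51, edgeR adjusted p = 0.0103). The desaturase SCD5 fell, from 34.7, 28.8 and 33.6 to 20.2, 13.8 and 14.1 CPM (log2 -1.01 ± 0.22, edgeR adjusted p = 0.00879). Of 27 synthesis genes 5 rose and 3 fell, with 6, 3, 3, 5, 5 and 5 rises and 1, 1, 1, 2, 1 and 3 falls leaving out 1 library in turn. Of 29 genes of fat oxidation and droplets 5 rose and 4 fell, with 4, 3, 3, 7, 3 and 3 rises and 0, 1, 4, 5, 1 and 1 falls leaving out 1 library in turn. The shares of all genes were 14.2% and 12.9%.

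The calprotectin pair and the lectin-like receptor OLR1 rose. S100A9 and S100A8 form calprotectin, a calcium- and zinc-binding complex of neutrophils and stressed epithelium. S100A9 (chromosome 1, 153357854 to 153361027, plus strand) stood at 14.9, 38.8 and 18.6 CPM in siControl and 362, 335 and 370.3 CPM in siMondoA (log2 3.88 ± 0.31, edgeR adjusted p = 9.83e-05). Its neighbour S100A8 (chromosome 1, 153390032 to 153391188, minus strand) had 1, 2 and 2 counts in siControl replicates 1, 2 and 3 and 181, 111 and 148 in siMondoA. The ratio of the summed counts per depth was 89 with an exact 95% interval of 37.9 to 276, which covers counting error only. OLR1 (chromosome 12, 10158301 to 10172138, minus strand), the receptor for oxidised lipoprotein, had 0, 2 and 0 counts in siControl and 77, 160 and 214 in siMondoA, a ratio of 228 with an interval of 62.8 to 1889.6. All 3 genes were apart in every library, and siControl replicate 2 had the highest S100A9 level among controls. Of 22 tested genes of squamous differentiation and the S100 family, 8 rose and 3 fell, with a median of 0.56. These are 36.4% and 13.6%, beside 14.2% and 12.9% of all genes. S100A13, which takes part in release of growth factors, fell from 189, 182 and 151 to 108, 134 and 113 CPM (log2 -0.56 ± 0.12, edgeR adjusted p = 0.0105). The count of rises was 5, 4, 6, 10, 4 and 6 leaving out 1 library in turn, and that of falls 2, 3, 3, 5, 3 and 3. CD68, a myeloid lysosomal marker, rose from 25.5, 18.8 and 18.1 to 43.4, 43.1 and 43.9 CPM (log2 1.06 ± 0.16, edgeR adjusted p = 0.00178). CD14, a monocyte receptor, was at 25.5, 25.6 and 23.7 CPM in siControl and 19.9, 16.2 and 17.8 CPM in siMondoA (log2 -0.47 ± 0.13, edgeR adjusted p = 0.0233). The CD14 call was lost without siControl replicate 1 or 2 or siMondoA replicate 2 or 3 (edgeR adjusted p 0.00751 to 0.0759 over all alternatives). CD3E was at 0, and the 6 leukocyte markers summed to 42.3 to 51.9 CPM in siControl and 60.1 to 63.5 CPM in siMondoA. Their part in the calprotectin result was not tested. In such bulk libraries, a larger share of expressing cells and more RNA per cell cannot be told apart.

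Genes of clotting, plasminogen activation and matrix proteolysis were among those that moved most. Of 39 tested, 18 rose and 7 fell (median 0.45), against 14.2% and 12.9% of all genes. F3 (chromosome 1, 94529225 to 94541800, minus strand), tissue factor, which starts the clotting cascade, went from 78.7, 52 and 67.4 to 409, 407 and 493 CPM (log2 2.72 ± 0.16, edgeR adjusted p = 4.00e-05). TFPI, the inhibitor of that step, went from 525, 565 and 439 to 241, 299 and 313 CPM (log2 -0.84 ± 0.15, edgeR adjusted p = 0.00392). The initiator thus rose and its inhibitor fell. PLAT, tissue plasminogen activator, fell from 390.4, 318 and 229 to 112, 81.9 and 83.8 CPM (log2 -1.75 ± 0.22, edgeR adjusted p = 9.12e-04). SERPINB2, an inhibitor of plasminogen activation, had 2, 1 and 2 counts in siControl and 78, 216 and 102 in siMondoA, a ratio of 80.1 with an exact interval of 34 to 248. The tissue inhibitors of metalloproteinases diverged. TIMP1 rose from 2287, 2273 and 1998 to 2928, 5268 and 4367 CPM (log2 0.94 ± 0.20, edgeR adjusted p = 0.009). TIMP2 fell from 167, 126 and 133 to 50.5, 45.3 and 42.4 CPM (log2 -1.63 ± 0.14, edgeR adjusted p = 1.11e-04). The count of rises was 10, 10, 12, 18, 12 and 10 leaving out 1 library in turn, and that of falls 3, 5, 6, 5, 5 and 4 leaving out 1 library in turn.

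Single matrix genes and integrins rose and others fell. Of 59 collagens, matrix glycoproteins and cross-linkers 14 rose and 9 fell, or 23.7% and 15.3% beside 14.2% and 12.9% of all genes, the share of falls being near that of all genes. COL1A2 (chromosome 7, 94394561 to 94431232, plus strand), a chain of type I collagen, stood at 12.9, 17.8 and 21.8 CPM in siControl and 1.95, 0.159 and 1.36 CPM in siMondoA (log2 -3.91 ± 0.56, edgeR adjusted p = 0.00161). SPARC, a collagen-binding glycoprotein, fell from 85.2, 69 and 58.5 to 26.6, 19.7 and 25.9 CPM (log2 -1.56 ± 0.18, edgeR adjusted p = 5.94e-04). COL5A3, a minor fibrillar collagen chain, rose from 11.6, 13.3 and 16.9 to 68.9, 185 and 96.8 CPM, most in siMondoA replicate 2 (log2 3.06 ± 0.35, edgeR adjusted p = 5.38e-04). TNC, the stress-induced matrix protein tenascin C, rose from 60.6, 59.4 and 72.2 to 199.6, 229.6 and 220.5 CPM (log2 1.76 ± 0.15, edgeR adjusted p = 1.11e-04). NID2, a basement membrane linker, went from 2.22, 1.55 and 2.67 to 10.9, 10.7 and 11 CPM (log2 2.33 ± 0.27, edgeR adjusted p = 5.12e-04). None of these 5 genes overlapped between groups. Of 5 fibroblast markers tested PDGFRB alone was called, falling from 33.4, 26 and 26.3 to 8.36, 4.85 and 9.29 CPM (log2 -1.93 ± 0.24, edgeR adjusted p = 7.82e-04). The other 4 did not pass, with log2 values of 0.40 for PDGFRA, 0.29 for DCN, 0.99 for FAP and -0.74 for LUM, and the list's median was 0.29. The 6 fibroblast markers summed to 182 to 262 CPM in siControl and 106 to 172 CPM in siMondoA, a sum made up mostly of LUM, with THY1 at 0, and their part in the collagen result was not tested. Among 15 integrin chains 5 rose and 3 fell. ITGA10, a collagen-binding chain, fell from 9.69, 11.6 and 8.15 to 1.25, 1.19 and 0.64 CPM (log2 -3.24 ± 0.28, edgeR adjusted p = 1.20e-04). ITGB3, of the vitronectin receptor, went from 95.9, 97.2 and 102 to 31.9, 58.5 and 49.9 CPM (log2 -1.07 ± 0.19, edgeR adjusted p = 0.00413). ITGA5, of the fibronectin receptor, rose from 212, 224 and 235 to 359, 683 and 554 CPM (log2 1.25 ± 0.21, edgeR adjusted p = 0.00308), the laminin-binding ITGA6 from 287, 235 and 242 to 523, 443 and 536 CPM (log2 0.98 ± 0.14, edgeR adjusted p = 0.00173). ITGB8, which presents latent TGF-beta, went from 43.2, 56.5 and 43 to 75.5, 127 and 104 CPM (log2 1.11 ± 0.22, edgeR adjusted p = 0.00613). Matrix rises numbered 11, 9, 9, 15, 11 and 10 leaving out 1 library in turn, and falls 9, 9, 10, 9, 11 and 9.

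Ligands and adaptors of the EGF receptor, and output genes of the ERK kinases below it, were called higher about as often as not. Of 23 receptors, ligands and adaptors 11 rose and 1 fell (median 0.43), or 47.8% and 4.35%. Of 45 ERK output and immediate early genes 23 rose and 1 fell (median 0.78), or 51.1% and 2.22%. The shares of all genes were 14.2% and 12.9%. The ligand AREG, amphiregulin, went from 25.9, 20.8 and 17.5 to 192, 312 and 361 CPM (log2 3.76 ± 0.49, edgeR adjusted p = 0.00104). EREG, epiregulin, went from 111, 131 and 119 to 551, 872 and 1187 CPM (log2 2.85 ± 0.46, edgeR adjusted p = 0.00262). Both were highest in siMondoA replicate 3. NRG4, a ligand of ERBB4, went from 1.87, 2.25 and 2.22 to 5.86, 4.45 and 4.96 CPM (log2 1.26 ± 0.21, edgeR adjusted p = 0.00294). GAB2 (chromosome 11, 78215297 to 78418348, minus strand), a docking adaptor that carries receptor signals to PI3-kinase and ERK, went from 0.889, 1.24 and 1.3 to 18.3, 67.2 and 42.5 CPM, with all siMondoA libraries above all controls (log2 5.19 ± 0.72, edgeR adjusted p = 0.00143). EGR2, an early growth response factor, went from 1.42, 3.02 and 1.43 to 8.52, 13.2 and 11.5 CPM (log2 2.49 ± 0.39, edgeR adjusted p = 0.00227). Among feedback inhibitors of ERK, SPRED1 rose from 109, 115 and 104 to 159, 158 and 158 CPM (log2 0.53 ± 0.09, edgeR adjusted p = 0.00294). SPRY1 fell from 164, 178 and 148 to 107, 103 and 104 CPM (log2 -0.64 ± 0.12, edgeR adjusted p = 0.00479). Such a fall was the exception, as 23 of the 45 ERK output genes rose and 1 fell. Rises among ligands and adaptors numbered 7, 4, 7, 12, 6 and 6 leaving out 1 library in turn, and falls 0, 1, 1, 4, 1 and 0. Rises among ERK output genes numbered 13, 12, 15, 23, 17 and 13 leaving out 1 library in turn, and falls 1, 1, 1, 1, 2 and 1.

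The cyclooxygenases, which make the first step of prostaglandin synthesis, moved apart. PTGS1, the constitutive cyclooxygenase, stood at 18.8, 17.7 and 10.8 CPM in siControl and 2.34, 1.83 and 2 CPM in siMondoA (log2 -2.93 ± 0.25, edgeR adjusted p = 1.18e-04). PTGS2, the inducible cyclooxygenase, was at 382, 872 and 543 CPM in siControl and 1609, 1387 and 3157 CPM in siMondoA (log2 1.78 ± 0.46, edgeR adjusted p = 0.0181). Control levels of PTGS2 spread widely, and its call was lost without siControl replicate 1, siControl replicate 3 or siMondoA replicate 3 (edgeR adjusted p = 0.0714, 0.0634 and 0.0722; 0.00325 to 0.0722 over all alternatives). Downstream, PTGES3, a cytosolic prostaglandin E synthase that is also an HSP90 co-chaperone, fell from 440.4, 475 and 475 to 219.9, 151 and 181 CPM (log2 -1.33 ± 0.19, edgeR adjusted p = 0.00145). PTGIS, prostacyclin synthase, fell from 78, 37.8 and 36.3 to 17.7, 15.6 and 11.8 CPM (log2 -1.75 ± 0.33, edgeR adjusted p = 0.00504). ABCC4, which exports prostaglandins, went from 62.2, 69.6 and 64.2 to 41.2, 38.7 and 42.8 CPM (log2 -0.68 ± 0.12, edgeR adjusted p = 0.00412). The receptor PTGER2 rose from 27.3, 32.6 and 30.6 to 50.5, 46.5 and 52.8 CPM (log2 0.73 ± 0.14, edgeR adjusted p = 0.00648). Over the list 6 of 23 genes fell and 3 rose, or 26.1% and 13% beside 12.9% and 14.2% of all genes. The count of rises was 2, 2, 1, 3, 3 and 2 leaving out 1 library in turn.

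**Figure D3:**
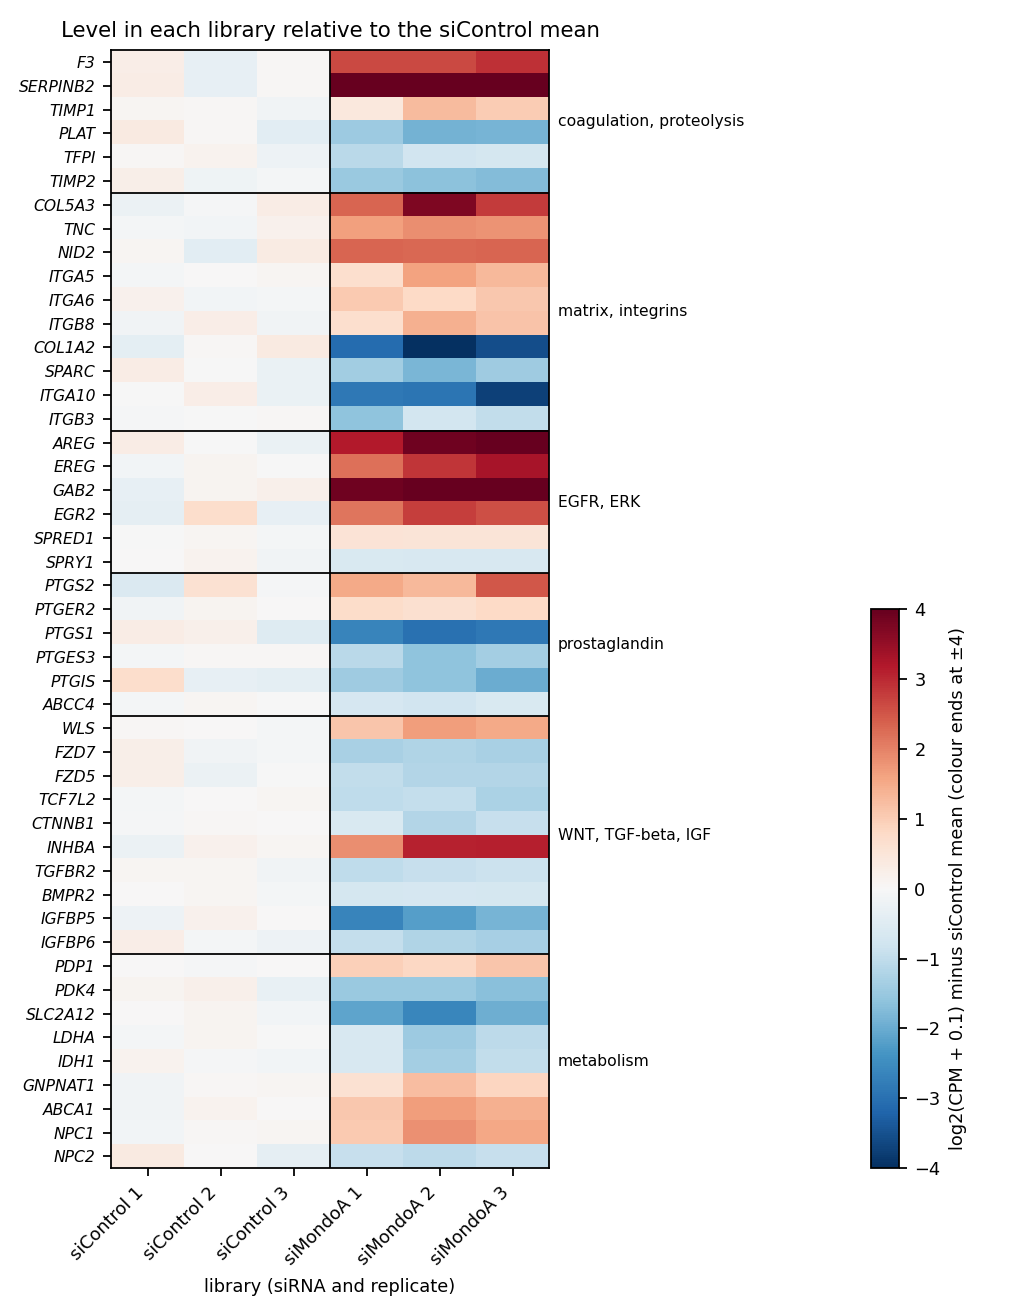
Rows are named genes in 6 groups and columns the 6 libraries; colour is log2(CPM + 0.1) minus the mean of the 3 siControl libraries, red above and blue below, ending at ±4. In every row the 3 siMondoA libraries share one direction, and siMondoA replicate 1 is paler than replicates 2 and 3 for AREG and INHBA.

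IGFBP5 and IGFBP6, binding proteins of the insulin-like growth factors (IGFs), fell. IGFBP5 (chromosome 2, 216672105 to 216695525, minus strand), which binds IGFs outside the cell, stood at 693, 903 and 813 CPM in siControl and 128, 172 and 219.5 CPM in siMondoA (log2 -2.21 ± 0.19, edgeR adjusted p = 1.20e-04). IGFBP6, which prefers IGF2, went from 93.7, 72.9 and 67.2 to 39.5, 33.8 and 31 CPM (log2 -1.16 ± 0.17, edgeR adjusted p = 0.00155). FOXO4, a transcription factor held in check by insulin signals, fell from 13.9, 12.1 and 9.33 to 3.59, 4.13 and 4.72 CPM (log2 -1.50 ± 0.21, edgeR adjusted p = 0.00158). PIK3R2, a regulatory subunit of PI3-kinase, went from 103, 85.7 and 97 to 62.6, 45.1 and 55.4 CPM (log2 -0.81 ± 0.15, edgeR adjusted p = 0.00501). The insulin receptor substrate IRS2 rose, from 12.6, 11.5 and 14.7 to 22.1, 35.2 and 32.1 CPM (log2 1.20 ± 0.23, edgeR adjusted p = 0.00575). The groups did not overlap in any of the 5. Of 34 genes 10 fell and 3 rose, or 29.4% and 8.82% beside 12.9% and 14.2% of all genes. The count of falls was 6, 7, 9, 12, 8 and 8 leaving out 1 library in turn, and that of rises 2, 1, 3, 5, 2 and 2.

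The WNT receptors FZD7 and FZD5 and the effectors CTNNB1 and TCF7L2 fell, while WLS rose. Of 33 genes 11 fell and 6 rose (median -0.38). FZD7, a WNT receptor, went from 51.9, 40.6 and 41.7 to 18.2, 19.2 and 18 CPM (log2 -1.28 ± 0.19, edgeR adjusted p = 0.00177). Its relative FZD5 went from 33.1, 23.9 and 27.7 to 14.1, 12.2 and 12.2 CPM (log2 -1.13 ± 0.18, edgeR adjusted p = 0.00237). CTNNB1, beta-catenin, the effector of the canonical pathway, went from 636, 684 and 669.5 to 430.0, 293 and 352 CPM (log2 -0.89 ± 0.16, edgeR adjusted p = 0.00411). TCF7L2, its DNA-binding partner, went from 27.9, 29.9 and 31.4 to 14.8, 15.3 and 12.2 CPM (log2 -1.08 ± 0.13, edgeR adjusted p = 6.57e-04). WLS, which carries WNT proteins to the cell surface, rose from 232, 227 and 215 to 479.7, 719.7 and 641 CPM (log2 1.45 ± 0.15, edgeR adjusted p = 2.80e-04). The count of WNT genes that fell was 8, 8, 9, 11, 7 and 9 leaving out 1 library in turn, and that of rises 4, 3, 4, 7, 6 and 4. For TGF-beta and its relatives, 7 of 43 genes rose and 8 fell, or 16.3% and 18.6% beside 14.2% and 12.9% of all genes. There were 4, 6, 6, 10, 6 and 5 rises and 5, 5, 7, 9, 6 and 5 falls leaving out 1 library in turn. The type II receptors fell, TGFBR2 from 892, 903 and 763 to 416, 444 and 470.2 CPM (log2 -0.94 ± 0.12, edgeR adjusted p = 9.17e-04). BMPR2 went from 89.4, 95.2 and 83.8 to 55.1, 56.6 and 55.3 CPM (log2 -0.68 ± 0.10, edgeR adjusted p = 0.00162). INHBA, the subunit of activin A, rose from 33.9, 44.7 and 41.5 to 145, 335 and 345 CPM (log2 2.78 ± 0.46, edgeR adjusted p = 0.00283). The activin-binding FSTL3 went from 41.9, 32.8 and 40.6 to 63.5, 112 and 61.7 CPM (log2 1.04 ± 0.21, edgeR adjusted p = 0.00748). ID2, a standard BMP output gene, fell from 87.6, 85.8 and 60.5 to 39.8, 19.7 and 24.3 CPM (log2 -1.48 ± 0.30, edgeR adjusted p = 0.0074). Of 32 Notch and Hippo genes 12 rose and 2 fell, or 37.5% and 6.25%. Rises numbered 6, 3, 7, 14, 6 and 5 leaving out 1 library in turn, and falls 1, 0, 1, 1, 0 and 1. Lists in this report can share members: F3 is counted here and among the genes of proteolysis. The Hippo effector YAP1 rose from 136, 148 and 142 to 184, 270.5 and 247 CPM (log2 0.72 ± 0.16, edgeR adjusted p = 0.00966). AJUBA, which restrains the LATS kinases, went from 89.3, 72.2 and 83.3 to 188, 370.1 and 295 CPM (log2 1.80 ± 0.39, edgeR adjusted p = 0.00962).

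**Figure D4:**
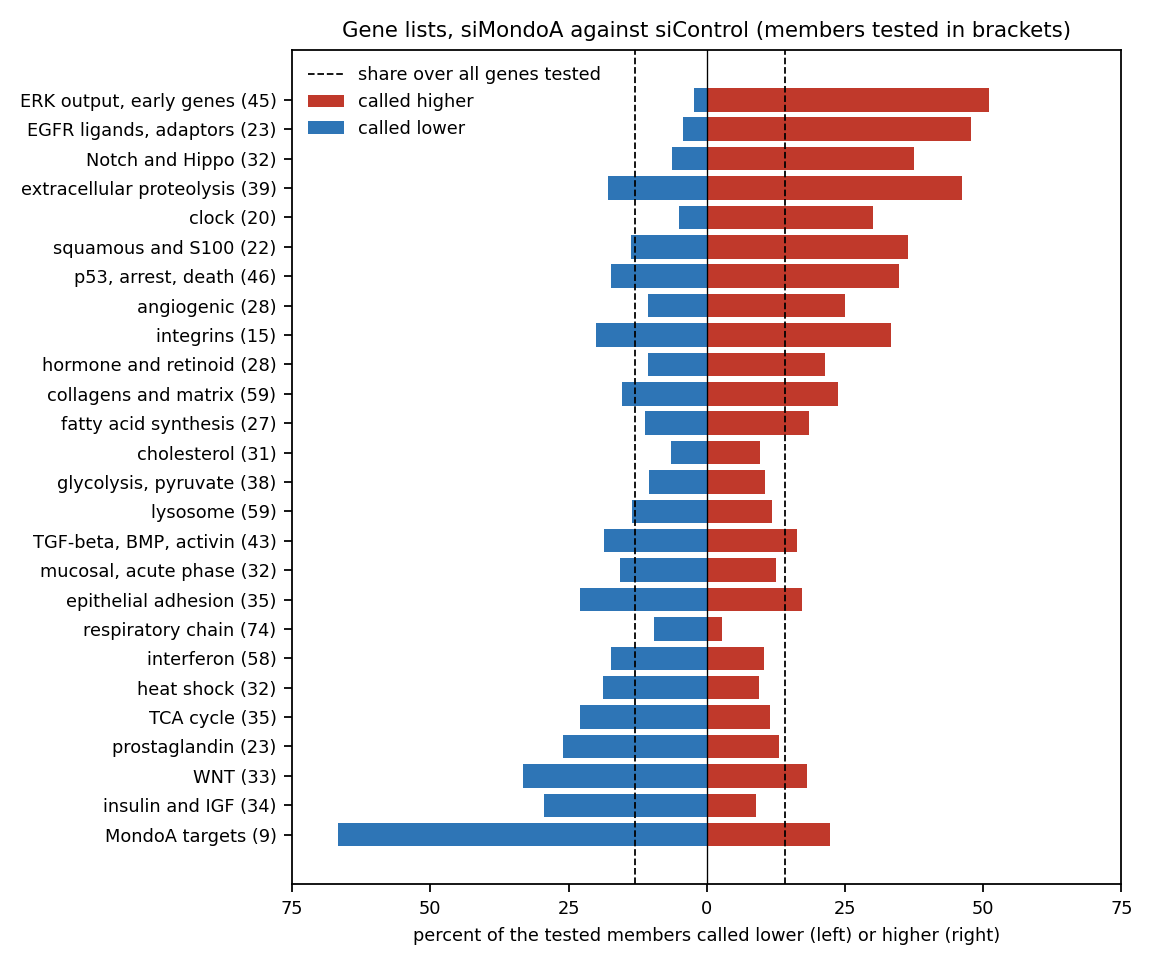
For each of 26 gene lists (members tested in brackets), bars give the percentage of tested members called higher (red, right) or lower (blue, left) after siMondoA, and dashed lines the share over all genes tested, 14.2% and 12.9%. ERK output, EGFR ligands and adaptors and extracellular proteolysis reach furthest right, and MondoA targets, WNT and insulin and IGF furthest left.

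E-cadherin rose while other junction genes fell. Of 35 keratin, junction and apical genes 6 rose and 8 fell, or 17.1% and 22.9% beside 14.2% and 12.9% of all genes. CDH1, E-cadherin, went from 9.15, 4.26 and 4.5 to 29.9, 39.8 and 22.6 CPM (log2 2.38 ± 0.37, edgeR adjusted p = 0.00215). JUP, plakoglobin, a link of desmosomes and adherens junctions, fell from 214, 171 and 184 to 102, 97 and 98 CPM (log2 -0.94 ± 0.12, edgeR adjusted p = 7.95e-04), the desmosomal protein PERP from 159.9, 118 and 115 to 49.6, 35.5 and 38.3 CPM (log2 -1.67 ± 0.22, edgeR adjusted p = 0.00118). The tight junction gene CLDN12 went from 53.9, 62.9 and 49.8 to 19.2, 24.4 and 16.8 CPM (log2 -1.46 ± 0.15, edgeR adjusted p = 3.25e-04). Falls numbered 5, 5, 8, 11, 5 and 6 leaving out 1 library in turn. Transcription factors of the pancreatic and endodermal lineage that rose were KLF5, from 44.6, 30.5 and 29.4 to 148, 253 and 199 CPM (log2 2.52 ± 0.41, edgeR adjusted p = 0.00259), GATA6, from 64, 63.1 and 61.8 to 98.4, 142 and 111 CPM (log2 0.90 ± 0.14, edgeR adjusted p = 0.00228). NR5A2, went from 28.3, 29.3 and 26.5 to 49.8, 43 and 48.6 CPM (log2 0.75 ± 0.13, edgeR adjusted p = 0.00385). They were 3 of 17 tested (17.6%), and 2 others fell (11.8%), beside 14.2% and 12.9% of all genes. Neither fall was called without siControl replicate 1, 2 or 3 or siMondoA replicate 2 or 3.

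Secreted defence proteins included steep falls. DMBT1 (chromosome 10, 122560665 to 122643736, plus strand), a scavenger receptor glycoprotein of mucosae, went from 202, 259 and 167 to 26.6, 16.5 and 21.6 CPM (log2 -3.28 ± 0.22, edgeR adjusted p = 5.87e-05). MUC16 (chromosome 19, 8848844 to 8981342, minus strand), the mucin that carries the CA125 antigen, had 85, 65 and 78 counts in siControl replicates 1, 2 and 3 and 0, 1 and 2 in siMondoA. Summed counts per depth were 75.1 times higher in siControl, with an exact 95% interval of 25.4 to 367. MUC13, a second membrane mucin, rose from 15.2, 18.9 and 18.3 to 57.6, 54.9 and 69.5 CPM (log2 1.79 ± 0.18, edgeR adjusted p = 2.90e-04). The elastase inhibitor PI3 rose from 3.64, 4.26 and 2.15 to 15.3, 28.6 and 9.77 CPM (log2 2.43 ± 0.39, edgeR adjusted p = 0.00262). CP, ceruloplasmin, fell from 506, 547 and 365 to 299, 233 and 236 CPM (log2 -0.89 ± 0.19, edgeR adjusted p = 0.00828). The cystatins CST1 and CST4, secreted protease inhibitors whose reads may be shared because the genes are near-identical, both fell. CST1 went from 17.1, 11.1 and 10.6 to 1.88, 1.03 and 2.08 CPM (log2 -2.95 ± 0.33, edgeR adjusted p = 4.77e-04). CST4 went from 28, 25.3 and 14.5 to 3.83, 1.27 and 1.92 CPM (log2 -3.26 ± 0.42, edgeR adjusted p = 9.73e-04). Of 32 mucosal and acute phase genes 4 rose and 5 fell (12.5% and 15.6%, beside 14.2% and 12.9% of all genes), with 3, 6, 4, 4, 6 and 4 rises and 4, 4, 4, 8, 4 and 4 falls leaving out 1 library in turn. Of 59 lysosomal genes 7 rose and 8 fell (11.9% and 13.6%), with 7, 3, 4, 5, 5 and 4 rises and 5, 6, 8, 9, 5 and 6 falls leaving out 1 library in turn. Among them the peptidase TPP1 fell from 95.3, 78.3 and 76 to 39.8, 48.1 and 40.3 CPM (log2 -0.96 ± 0.14, edgeR adjusted p = 0.00162). Cathepsin F, CTSF, went from 13, 11.9 and 10.4 to 4.84, 3.34 and 5.36 CPM (log2 -1.38 ± 0.22, edgeR adjusted p = 0.00232). Of 58 interferon, double-stranded RNA and antigen presentation genes 10 fell and 6 rose (17.2% and 10.3%, beside 12.9% and 14.2% of all genes). There were 4, 3, 4, 7, 5 and 4 rises and 10, 10, 11, 10, 10 and 10 falls leaving out 1 library in turn. IFITM1, an antiviral membrane protein with near-identical relatives, went from 87.1, 81.6 and 66.1 to 25.6, 21 and 31.5 CPM (log2 -1.59 ± 0.19, edgeR adjusted p = 7.36e-04). TAPBP, tapasin, which loads peptides on class I molecules, fell from 112, 90.0 and 89.1 to 50.8, 46.7 and 55.9 CPM (log2 -0.93 ± 0.13, edgeR adjusted p = 0.00125). CD274, the checkpoint ligand PD-L1, rose from 0.533, 0.93 and 0.978 to 4.69, 6.6 and 11.2 CPM (log2 3.16 ± 0.53, edgeR adjusted p = 0.00298).

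Among p53 targets, inhibitors of cyclin-dependent kinases and the BCL2 family, rises outnumbered falls. Of 46 genes 16 rose and 8 fell, or 34.8% and 17.4% beside 14.2% and 12.9% of all genes. CDKN1A, the p21 inhibitor of cyclin-dependent kinases, went from 5.24, 4.42 and 4.56 to 15.5, 33.3 and 23.3 CPM (log2 2.34 ± 0.40, edgeR adjusted p = 0.00337). MDM2, the ligase that limits p53, went from 48.3, 53.1 and 49 to 75, 90.1 and 78.6 CPM (log2 0.70 ± 0.13, edgeR adjusted p = 0.00454). The death receptor TNFRSF10B went from 159, 183 and 179.7 to 286, 290.0 and 326 CPM (log2 0.79 ± 0.14, edgeR adjusted p = 0.00398). CCNG1 (chromosome 5, 163437569 to 163446151, plus strand), cyclin G1, a standard p53 target outside the list of 46, fell from 414, 460.3 and 385 to 92, 45.6 and 76.5 CPM (log2 -2.56 ± 0.22, edgeR adjusted p = 1.18e-04). Thus CCNG1 went against the other 3. Rises in this list numbered 9, 8, 8, 16, 10 and 9 leaving out 1 library in turn, and falls 5, 5, 5, 7, 6 and 5.

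Guidance and vascular genes split by member. SEMA3F, a semaphorin that repels endothelial cells, fell from 59.3, 46.7 and 46.3 to 8.91, 10.1 and 9.45 CPM (log2 -2.42 ± 0.17, edgeR adjusted p = 7.46e-05). SEMA7A, a membrane semaphorin, rose from 26.1, 24 and 26.4 to 59.6, 73.4 and 78.9 CPM (log2 1.47 ± 0.15, edgeR adjusted p = 2.65e-04). The ephrins were opposed in the same way: EFNB1 fell from 57.4, 63.3 and 59.9 to 27.6, 16.6 and 24.2 CPM (log2 -1.40 ± 0.18, edgeR adjusted p = 8.81e-04). EFNB2 rose from 69.8, 63.1 and 71.6 to 133, 215 and 185 CPM (log2 1.38 ± 0.20, edgeR adjusted p = 0.00166). VASH1, vasohibin, an inhibitor of vessel growth that also trims tubulin, fell from 15.8, 18.9 and 19.7 to 5.16, 4.77 and 5.28 CPM (log2 -1.84 ± 0.15, edgeR adjusted p = 1.06e-04). Of 28 angiogenic ligands and receptors 7 rose and 3 fell, or 25% and 10.7% beside 14.2% and 12.9% of all genes. The genes just named are not all in that list. Its rises numbered 4, 3, 4, 8, 4 and 4 leaving out 1 library in turn. In retinoid and thyroid hormone metabolism, ALDH1A2, which makes retinoic acid, rose from 0.8, 0.698 and 0.587 to 7.74, 8.66 and 6.64 CPM (log2 3.46 ± 0.25, edgeR adjusted p = 7.46e-05). DIO2, the deiodinase that activates thyroid hormone, rose from 3.64, 3.33 and 3.72 to 19.2, 18.8 and 26.4 CPM (log2 2.59 ± 0.19, edgeR adjusted p = 7.46e-05). The hormone list, of steroid and glucocorticoid related genes, holds ALDH1A2 but not DIO2. It gave 6 rises and 3 falls of 28, or 21.4% and 10.7% beside 14.2% and 12.9% of all genes. There were 4, 2, 3, 9, 2 and 2 rises and 1, 3, 3, 3, 2 and 2 falls leaving out 1 library in turn.

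Several of the steepest or most precise changes lie outside these lists. COBLL1, an actin-associated protein, was tight within both groups, at 17, 14.5 and 16.4 CPM in siControl and 62, 62.6 and 60.4 CPM in siMondoA (log2 1.95 ± 0.12, edgeR adjusted p = 4.00e-05). PRND, which encodes doppel, the neighbour and relative of the prion protein, rose from 2.49, 0.698 and 1.76 to 33.6, 43.8 and 40.3 CPM (log2 4.58 ± 0.38, edgeR adjusted p = 1.11e-04). PRNP itself went from 1552, 1468 and 1338 to 2894, 6262 and 3978 CPM (log2 1.59 ± 0.24, edgeR adjusted p = 0.00178). PRND lies at chromosome 20, 4721910 to 4728460, plus strand and PRNP at chromosome 20, 4686236 to 4701590, plus strand. TNFAIP6, a hyaluronan-binding protein, rose from 2.67, 5.19 and 4.89 to 42.3, 154 and 134 CPM (log2 4.68 ± 0.70, edgeR adjusted p = 0.00185), IL1RL1, the interleukin 33 receptor, from 5.15, 5.74 and 5.61 to 23.5, 114 and 51.7 CPM (log2 3.51 ± 0.58, edgeR adjusted p = 0.00294). The transporter SLC16A6 went from 35, 44.1 and 37.7 to 136, 487 and 475 CPM (log2 3.23 ± 0.60, edgeR adjusted p = 0.00473). In all of these siMondoA replicate 1 was the lowest siMondoA library, except in COBLL1, where replicate 3 was. Falls of the same kind were PXYLP1, a phosphatase of proteoglycan synthesis, from 9.15, 13.3 and 11.9 to 1.56, 1.43 and 1.68 CPM (log2 -2.87 ± 0.24, edgeR adjusted p = 1.11e-04). GLCE, which epimerises heparan sulfate, went from 115, 149 and 115 to 39, 34.7 and 38 CPM (log2 -1.76 ± 0.14, edgeR adjusted p = 8.74e-05). KCNH2, the hERG potassium channel, fell from 14, 11.8 and 15.5 to 2.81, 1.67 and 2.64 CPM (log2 -2.53 ± 0.23, edgeR adjusted p = 1.63e-04). EXOC4, of the exocyst, fell from 103, 103 and 101 to 41.8, 36.7 and 40.8 CPM (log2 -1.37 ± 0.10, edgeR adjusted p = 7.46e-05). TMEM30A, a flippase subunit, went from 182, 209 and 203 to 58, 42.1 and 52.3 CPM (log2 -1.96 ± 0.16, edgeR adjusted p = 1.03e-04). Among the largest differences in CPM, which also grow with a gene's length and level, APP, the amyloid precursor, fell from 1506, 1435 and 1396 to 617, 631 and 698 CPM (log2 -1.16 ± 0.10, edgeR adjusted p = 1.11e-04). NAMPT, which makes NAD from nicotinamide, rose from 391, 588 and 441 to 1463, 3203 and 2985 CPM (log2 2.43 ± 0.51, edgeR adjusted p = 0.00815). The survival factor MCL1 went from 614, 723 and 644 to 1379, 2076 and 2106 CPM (log2 1.49 ± 0.32, edgeR adjusted p = 0.00885).

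The siMondoA libraries did not respond to the same degree. Over the 507 genes outside the 4 lists that rose at least 2-fold, siMondoA replicates 1, 2 and 3 lay a median of 1.07, 1.71 and 1.44 log2 units over the mean control. Over the 597 that fell at least 2-fold it was -1.18, -1.64 and -1.35. Replicate 2 was farthest from the controls for 336 of the rises and 361 of the falls, and replicate 1 for 39 and 89. MLXIP was not lowest in replicate 2, at 22.6, 23.4 and 15.7 CPM in replicates 1, 2 and 3. These medians describe genes chosen by the same contrast and carry no test.

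The direct comparison of siMondoA with siMLX asks where the knockdowns of the partners differ; it was tested in the same fit and shares the siMondoA libraries with the comparison above. It called 1673 genes (12.9%), 866 higher and 807 lower in siMondoA (6.66% and 6.21%). The siMLX libraries were uneven: the median of the 69 stress response genes relative to siControl was 0.02, 1.66 and 0.15 in siMLX replicates 1, 2 and 3, and without siMLX replicate 2 the count was 2970. Without siMLX replicates 1 and 3 it was 734 and 670, and 994 and 751 without siMondoA replicates 2 and 3. MLX, the target of that siRNA, stood at 11.9, 7.15 and 7.7 CPM in siMLX, 53.4, 58.8 and 53 CPM in siControl and 75, 69.6 and 68.5 CPM in siMondoA. MLXIP stood at 62.3, 66.6 and 68.1 CPM in siMLX, above all siMondoA libraries (log2 siMondoA minus siMLX -1.68 ± 0.17, edgeR adjusted p = 5.21e-04). PCK1 was at 108, 69 and 154 CPM in siMLX and 4.22, 0.954 and 2.72 CPM in siMondoA (log2 siMondoA minus siMLX -5.38 ± 0.49, edgeR adjusted p = 3.49e-04). IGFBP5 was at 873, 1088 and 1082 CPM after siMLX, with replicate 1 within and replicates 2 and 3 above the control range (log2 siMondoA minus siMLX -2.55 ± 0.20, edgeR adjusted p = 1.79e-04), and SPARC at 98.5, 121 and 86.3 CPM, above all controls (log2 siMondoA minus siMLX -2.08 ± 0.18, edgeR adjusted p = 3.30e-04). VASH1 at 18.7, 16.2 and 18 CPM (log2 siMondoA minus siMLX -1.80 ± 0.15, edgeR adjusted p = 2.74e-04) and PXYLP1 at 8.58, 8 and 12 CPM (log2 siMondoA minus siMLX -2.60 ± 0.24, edgeR adjusted p = 3.50e-04) likewise stood above siMondoA in every siMLX library. Among genes higher in siMondoA, SERPINB2 had 1, 0 and 4 counts in siMLX. Its summed counts per depth were 77.4 times higher in siMondoA, with an exact 95% interval of 32.9 to 239.6 for counting error only (edgeR adjusted p = 5.87e-04). CDH1 was at 3.71, 2.77 and 1.3 CPM in siMLX (log2 siMondoA minus siMLX 3.58 ± 0.40, edgeR adjusted p = 9.13e-04). PDP1 was at 80.2, 98.2 and 87.6 CPM (log2 siMondoA minus siMLX 1.12 ± 0.11, edgeR adjusted p = 5.21e-04) and F3 at 154, 163 and 144 CPM (log2 siMondoA minus siMLX 1.51 ± 0.15, edgeR adjusted p = 5.21e-04). For F3 the siMLX libraries lay between the other 2 groups. Each of these 10 differences kept its call and direction under every alternative run for this comparison.

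Other genes did not pass the direct test. TXNIP was at 172, 511 and 93.3 CPM in siMLX, with replicate 2 well above replicates 1 and 3, and the log2 difference siMondoA minus siMLX was -0.80 ± 0.58 (edgeR adjusted p = 0.376). ARRDC4 was at 13.7, 40.2 and 11 CPM (log2 siMondoA minus siMLX -0.80 ± 0.46, edgeR adjusted p = 0.269) and HBP1 at 42.4, 43.2 and 28.7 CPM (log2 siMondoA minus siMLX 0.30 ± 0.17, edgeR adjusted p = 0.264). Without siMLX replicate 2 the differences of TXNIP and ARRDC4 changed sign, to 0.16 and 0.0151 (edgeR adjusted p = 0.821 and 0.978). PTGS1 was at 1.5, 1.85 and 1.52 CPM, overlapping siMondoA (log2 siMondoA minus siMLX 0.34 ± 0.29, edgeR adjusted p = 0.455). TIMP1 was at 3794, 5458 and 4491 CPM (log2 siMondoA minus siMLX -0.13 ± 0.20, edgeR adjusted p = 0.693), DIO2 at 14.1, 18.5 and 15.9 CPM (log2 siMondoA minus siMLX 0.41 ± 0.17, edgeR adjusted p = 0.133) and PTX3, a soluble pattern-recognition protein, at 138, 165 and 140.0 CPM (log2 siMondoA minus siMLX 0.35 ± 0.16, edgeR adjusted p = 0.166). Without siMondoA replicate 1 PTX3 passed, at 0.50 (edgeR adjusted p = 0.0366), and TIMP1 changed sign, as it did without siMLX replicate 2 (0.0740 and 0.0169). A p that misses the threshold does not show that the knockdowns act alike: the SE of these differences runs from 0.16 for PTX3 to 0.58 for TXNIP.

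**Figure D5:**
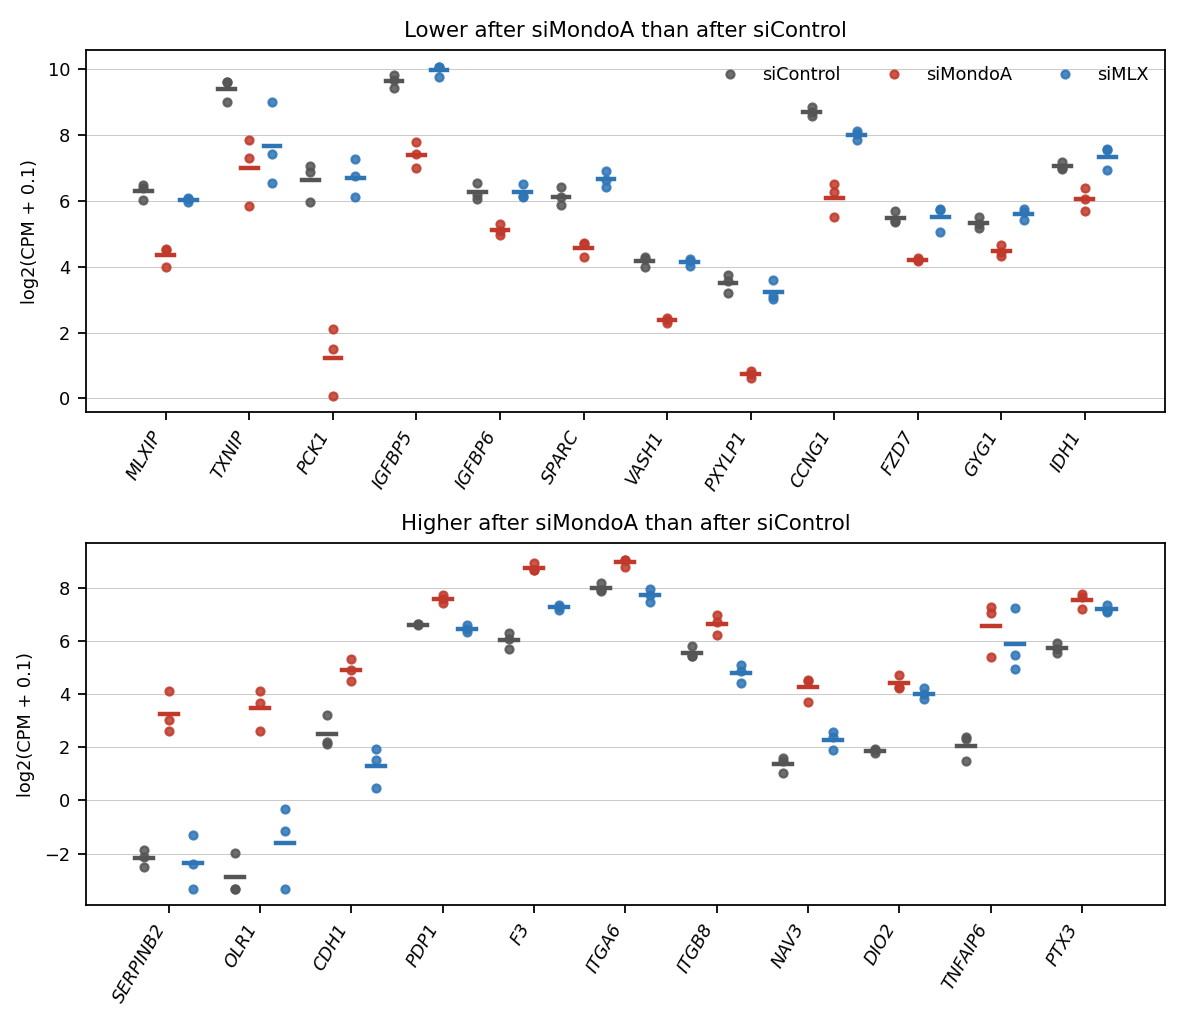
Dots are libraries, with the gene on the horizontal axis and log2(CPM + 0.1) on the vertical axis; bars are means, grey for siControl, red for siMondoA and blue for siMLX. PCK1, IGFBP5, SPARC and VASH1 are low in siMondoA alone, PDP1 is high in siMondoA alone, while DIO2 and PTX3 are high after both siRNAs and TXNIP is uneven across the siMLX libraries.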

How the data were processed

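The authors deposited raw counts per gene symbol. HTSeq 0.6.1, TopHat2 2.1.0, bcl2fastq 1.8.4 and edgeR, and the builds hg38 and mm10, are named without role or order per the submitters' processing notes, so the counting mode and strand setting are not given in the sources used here. The kit's strand is not known either: reads of overlapping or antisense genes cannot be told apart. The deposited table also holds the authors' log2 fold changes and adjusted p-values; an adjusted p is given there for 13483 genes in the authors' deposited table, with 1640 higher and 1489 lower under 0.05, and 2693 of the genes called here pass there.

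Groups came from the titles in the labels. The 9 siRNA libraries were fitted together with edgeR 4.0.16 in R 4.3.3 (filterByExpr, TMM, quasi-likelihood test, group only, Benjamini-Hochberg). The script was tested on simulated counts.

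Named genes were MLXIP, TXNIP, ARRDC4 and PCK1. To these were added, outside the 4 lists, called genes averaging 4 CPM or more without overlap: the 15 largest rises and falls, the 12 smallest p and the 10 largest CPM differences per direction. Up to 5 members of each of 43 lists with the smallest p, and the 3 on each side of the threshold, were also eligible; those printed are a part of these, chosen after their values were seen for their roles and, apart from TXNIP, GFPT1, PTGS2 and CD14, from those whose call held without each library; some eligible genes are not reported here. Members and lists were chosen with earlier results of these data known. Near-identical genes, such as the cystatins and interferon-induced transmembrane genes, may share reads. Alternatives were DESeq2 1.42.0, other size factors and filters, a replicate block, other sets of libraries in the fit and leaving out each library. Libraries of a group differed by more than sampling noise (lowest chi-square per degree of freedom 8.74).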

Additional observations from a re-analysis of the deposited data

How the results depend on the processing

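For siMondoA against siControl, leaving out each library in turn gave 1745 to 3884 genes called, 838 to 2049 higher and 907 to 1835 lower, with 380 to 744 at least 2-fold higher and 446 to 749 at least 2-fold lower. An arm of these fits has 1 library fewer, and which property of a library moves the count was not tested. DESeq2, other size factors, other filters, other sets of libraries and the replicate block gave 3378 to 4551 genes, each within 1.5 times the 3532 reported. Deviations of libraries with the same number correlated at 0.136, 0.088 and 0.008 between siControl and siMondoA, 0.534, 0.447 and -0.109 between siMondoA and siMLX and 0.268, 0.188 and 0.359 between siControl and siMLX. Every pair was over 0.1 in the last set only, so the numbers were not taken to pair the libraries of either comparison made here; 4 of the 6 siControl and siMondoA libraries correlated best with their own number. With the number as a replicate block, 2347 genes were called higher and 2204 lower than in siControl, and 2606 differed between siMondoA and siMLX, where 706 did with only those 6 libraries in the fit. Leaving out each library in turn gave 670 to 2970 for that comparison; the cause was not tested. Among genes printed from it, chosen for this check after seeing the data, the log2 differences ranged, leaving out 1 library each, from -1.27 to 0.16 for TXNIP, from -1.12 to 0.0151 for ARRDC4 and from -0.33 to 0.0740 for TIMP1. All 3 reversed without siMLX replicate 2, TIMP1 also without siMondoA replicate 1, and PTX3 passed without siMondoA replicate 1 at 0.50. Of 137 named genes printed with levels in siControl and siMondoA, 137 were called, 137 under every alternative other than leaving out a library and 133 also without each library in turn; TXNIP, GFPT1, PTGS2 and CD14 were the exceptions, and the others were printed in part because their call held. None of these differences from siControl reversed its sign. Alternatives other than leaving out a library moved these list counts by over 1.5 times (reported count, then range): rises in glycolysis (4; 4 to 8), the respiratory chain (2; 1 to 3), insulin and IGF (3; 3 to 5), lineage factors (3; 3 to 5), mucosal genes (4; 4 to 8), hormones (6; 5 to 12), mesenchymal genes (3; 3 to 6), hypoxia (4; 4 to 8), ribosome biogenesis (7; 5 to 14), mitochondrial ribosome (4; 2 to 7) and neuroendocrine genes (2; 1 to 3); falls in glycolysis (4; 4 to 7), glycogen and glucose synthesis (3; 3 to 5), the respiratory chain (7; 7 to 12), sterols (2; 2 to 9), fat oxidation (4; 4 to 7), matrix (9; 8 to 14), ERK output (1; 1 to 2), Notch and Hippo (2; 2 to 4), adhesion (8; 8 to 13), mucosal genes (5; 4 to 9), nucleotides (6; 6 to 11), antioxidants (1; 1 to 7), heat shock (6; 6 to 10), hypoxia (3; 3 to 7), replication (2; 2 to 4), mitochondrial ribosome (6; 5 to 13), RNA interference (1; 1 to 3) and neuroendocrine genes (0; 0 to 1). Depth limits low genes: 0.204 to 0.267 CPM are the levels that 3 counts correspond to, so MUC16, OLR1, S100A8 and SERPINB2 are known in one group only to within counting error. The same limit touches other genes in single libraries. COL1A2 in siMondoA replicate 2 and CPA1 in siMondoA replicate 3 were under that level, and PAOX in siMondoA replicate 3 was near it.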

Other observations

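Clock genes included called members in both directions. Of 20 tested, 6 rose and 1 fell, where 14.2% and 12.9% of all genes did. Counts leaving out 1 library in turn are in the order siControl 1, 2 and 3, then siMondoA 1, 2 and 3. BHLHE41, a repressor of the clock and of hypoxia genes, went from 189, 199 and 185 CPM in siControl to 65.9, 40.2 and 52.4 CPM in siMondoA (log2 -1.85 ± 0.20, edgeR adjusted p = 3.38e-04). Its close relative BHLHE40 went the other way, from 114, 107 and 94.2 to 181, 196 and 245 CPM (log2 0.98 ± 0.18, edgeR adjusted p = 0.00413). NFIL3, a repressor of the clock's output, rose from 19, 17.1 and 13.5 to 50.6, 57.5 and 48.8 CPM (log2 1.66 ± 0.29, edgeR adjusted p = 0.00386). ARNTL, the core activator BMAL1, went from 9.77, 10.6 and 11.3 to 15.9, 22.3 and 25.2 CPM (log2 0.99 ± 0.21, edgeR adjusted p = 0.00897). None of the 4 overlapped between groups, and the count of rises was 3, 4, 3, 10, 4 and 3 leaving out 1 library in turn, with falls 1, 1, 1, 1, 1 and 2. Polyamine oxidases were opposed: SMOX, which oxidises spermine, rose from 136, 145 and 155 to 371, 749.9 and 607 CPM (log2 1.99 ± 0.35, edgeR adjusted p = 0.00398). PAOX, which oxidises acetylated polyamines, fell from 2.04, 1.16 and 1.7 to 0.469, 0.397 and 0.24 CPM (log2 -2.11 ± 0.41, edgeR adjusted p = 0.00613). Of 43 genes of purine, pyrimidine and polyamine synthesis 3 rose and 6 fell, with 2, 2, 3, 4, 3 and 3 rises and 4, 4, 6, 10, 5 and 4 falls leaving out 1 library in turn. The methionine adenosyltransferase MAT2A fell from 214, 268 and 253 to 178, 155 and 114 CPM (log2 -0.72 ± 0.16, edgeR adjusted p = 0.0104). Its regulatory subunit MAT2B went from 137, 145 and 131 to 90.8, 66.3 and 92.8 CPM (log2 -0.73 ± 0.16, edgeR adjusted p = 0.00915).

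Other lists are described by their counts, beside 14.2% of all genes that rose and 12.9% that fell. Of 41 autophagy genes 8 rose and 3 fell. WIPI1, which binds the lipid of forming autophagosomes, rose from 18.6, 15.7 and 14.7 to 30.8, 89.3 and 48.2 CPM (log2 1.78 ± 0.37, edgeR adjusted p = 0.0078). GABARAP, a membrane-bound autophagy tag, fell from 98.6, 88.6 and 68.9 to 53.8, 49.7 and 52.7 CPM (log2 -0.71 ± 0.15, edgeR adjusted p = 0.00775). There were 5, 3, 3, 12, 5 and 3 rises and 1, 2, 1, 2, 3 and 1 falls leaving out 1 library in turn. Of 36 antioxidant genes 7 rose and 1 fell, with 4, 4, 4, 9, 5 and 5 rises and 0, 0, 0, 4, 1 and 0 falls leaving out 1 library in turn. Folding genes of the endoplasmic reticulum gave 6 rises (5, 3, 3, 6, 4 and 7 leaving out 1 library in turn) and 5 falls of 45, among them ERN1, the stress sensor IRE1, from 7.91, 8.3 and 9 to 23.9, 41.2 and 35.6 CPM (log2 1.99 ± 0.36, edgeR adjusted p = 0.00434). Of 32 heat shock genes 3 rose and 6 fell, with 2, 1, 1, 3, 1 and 0 rises and 1, 1, 2, 10, 0 and 0 falls leaving out 1 library in turn. Mesenchymal genes gave 3 rises and 3 falls of 18, with 2, 2, 2, 6, 4 and 2 rises and 1, 2, 3, 4, 2 and 2 falls leaving out 1 library in turn. ZEB2, a repressor of epithelial genes, was among the rises, from 50.1, 57.1 and 46.2 to 96.3, 169 and 139.5 CPM (log2 1.40 ± 0.32, edgeR adjusted p = 0.0121). Among the falls was TPM1, a tropomyosin, which went from 254, 225 and 188 to 96.4, 136 and 100.2 CPM (log2 -1.003 ± 0.17, edgeR adjusted p = 0.00294). Hypoxia genes gave 4 rises and 3 falls of 30 (13.3% and 10.0%), with 4, 3, 3, 6, 3 and 3 rises and 1, 1, 2, 4, 1 and 1 falls leaving out 1 library in turn. DNA replication genes gave 9 rises and 2 falls of 66 (13.6% and 3.03%), with 3, 4, 8, 5, 8 and 4 rises and 0, 0, 0, 7, 0 and 0 falls leaving out 1 library in turn. Ribosome biogenesis genes gave 7 rises and 5 falls of 63 (11.1% and 7.94%), with 2, 3, 3, 7, 3 and 3 rises and 3, 1, 4, 5, 4 and 1 falls leaving out 1 library in turn. Mitochondrial ribosomal proteins gave 4 rises and 6 falls of 77 (5.19% and 7.79%), with 1, 2, 2, 4, 4 and 2 rises and 2, 2, 3, 14, 3 and 2 falls leaving out 1 library in turn. The MYC network gave 2 rises and 3 falls of 12 (16.7% and 25%), with 0, 0, 0, 3, 0 and 0 rises and 2, 2, 2, 2, 3 and 2 falls leaving out 1 library in turn. RNA interference genes gave 2 rises and 1 fall of 13 (15.4% and 7.69%), with 1, 1, 3, 1, 2 and 1 rises and 1, 0, 0, 1, 0 and 0 falls leaving out 1 library in turn. Neuroendocrine secretory genes gave 2 rises and 0 falls of 15 (13.3% and 0%), with 0, 0, 0, 1, 0 and 0 rises and 0, 0, 0, 1, 0 and 0 falls leaving out 1 library in turn. Of 4 cystatins 2 fell, the CST1 and CST4 already described. Endothelial markers summed to 13.3 to 18.3 CPM in siControl and 14.7 to 20.9 CPM in siMondoA, and acinar markers to 29.3 to 80.9 and 27.1 to 43.8 CPM, with CELA3A, AMY2A and CTRC at 0. The acinar sums were mostly PRSS1, which was not called. The other acinar marker tested, CPA1, was low and fell (log2 -2.80 ± 0.61, edgeR adjusted p = 0.00959). Its call without each library is not given here.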
